A study of Mus musculus with 24 samples.

Results

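Snord118 and Snord13 are small nucleolar RNAs (snoRNAs) that were chosen from earlier results on these data, in which they had the lowest p-values of all genes between diets in control mice. They are 2 of the 16730 genes counted in epididymal white adipose tissue (eWAT). Both were found by gene ID, since the deposited symbol column is empty for both rows, and the names are those of the GENCODE mouse annotation, release 21. Total RNA of eWAT from 24 male mice was sequenced with QuantSeq, which primes at poly(A) tails and counts reads near the 3′ ends of transcripts, 6 mice in each of 4 groups. All mice carried the floxed Lama4 allele on both chromosomes and came from the line labelled LFKO. Lama4 fl/fl mice, labelled wild type (floxed), were the controls, and Lama4 AKO mice also carried adiponectin-Cre, a transgene active in adipocytes, so that other cells of the tissue keep an intact gene. Mice of each genotype ate either breeder chow or a high-fat diet (HFD) with 45% fat for 20 weeks and were 24 to 26 weeks old when eWAT was taken. The study asked how the adipocyte's own laminin alpha 4, a basement membrane protein, bears on adipose tissue under both diets.

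SnoRNAs are short RNAs of the nucleolus that act on ribosomal RNA as it is made. Box C/D snoRNAs carry 2 short motifs, box C near the 5′ end and box D near the 3′ end, on which the proteins Snu13, Nop56, Nop58 and fibrillarin assemble. Most snoRNAs are cut out of introns of host genes. Snord118, also called U8, and Snord13, also called U13, belong to the few that RNA polymerase II transcribes from promoters of their own and that receive a trimethylguanosine cap. U8 is needed for the maturation of the RNAs of the large ribosomal subunit, and U13 directs the acetyltransferase Nat10 to a site in the RNA of the small subunit.

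The sequence of Snord118 is shown because its length and ends bear on how a method that primes on A runs can see it, and Gm24208, an annotated snoRNA, because reads of Snord118 can fit it too. They are given as DNA letters of the RNA strand, 5′ to 3′, from the GENCODE transcripts on GRCm38, with the box C letters TGATGA and the last box D letters CTGA in capitals.
Snord118: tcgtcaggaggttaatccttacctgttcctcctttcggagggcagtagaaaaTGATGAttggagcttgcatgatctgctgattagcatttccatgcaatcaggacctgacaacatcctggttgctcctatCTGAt
Gm24208: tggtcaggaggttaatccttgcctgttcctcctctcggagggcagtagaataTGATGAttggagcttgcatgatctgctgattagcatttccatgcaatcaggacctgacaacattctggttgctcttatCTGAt

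Snord118 (ENSMUSG00000064899) has 135 bases and lies on the forward strand at chr11:69073427-69073561. Its box C starts at base 53, and its last box D ends 1 base before the 3′ end. Snord13 (ENSMUSG00000088252) is a shorter RNA of 104 bases. Of 1507 annotated snoRNA transcripts, 26.08% hold the letters TGATGA and 24.02% hold them with CTGA further along, both read on the RNA strand only. Each gene is a single exon and overlaps no other annotated gene. The nearest gene of Snord118 is Tmem107, a gene of the ciliary transition zone on the same strand, which ends 133 bases before it. The nearest of Snord13 is Tti2, a gene of the TTT cochaperone complex on the opposite strand, which starts 347 bases away.

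Neither RNA is known to carry a long poly(A) tail, and the longest run of A in Snord118 is 4 bases. A run of at least 4 is present in 38.49% of annotated snoRNAs. The counts therefore come from a priming step whose efficiency on these RNAs is unknown, and the RNA was purified with a kit for lipid tissue whose recovery of RNAs of this length was not measured. A count compares a gene between libraries and is no number of molecules. Reads had 50 bases, and 15 of the 86 windows of that length in Snord118 occur whole in Gm24208, which is 96.2% identical over 133 bases and has no row in the count table. How the counting treated reads that fit both Snord118 and Gm24208 is not given in the sources used here, so that part of the Snord118 count is uncertain.

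Library totals lay between 5579590 and 18764516 counts. Lama4 itself was not lower in chow-fed Lama4 AKO mice (median 113 CPM) than in chow-fed Lama4 fl/fl mice (91.1 CPM), with medians of 44.3 and 79.8 CPM on HFD. The deleted exon 3 lies far from the 3′ end that was counted, and whether its loss changes these reads was not tested. The study reported lower Lama4 in eWAT of chow-fed Lama4 AKO mice by quantitative PCR, which these counts do not show. The reads are not taken as a check of the deletion, and the groups are used as labelled. Adipocyte markers were abundant in every library. Their summed level over 6 genes had medians of 30082 CPM in chow-fed and 18084 CPM in HFD-fed Lama4 fl/fl mice, and of 28143 and 9829 CPM in the corresponding Lama4 AKO groups. Of 8 genes of epididymis and testis, 3 had a row in the table, with a summed level of at most 18.9 CPM. In the library of chow-fed Lama4 fl/fl replicate 2, 370 of 15020 genes tested (2.46%) had their highest level, and this held for 25 of 79 other short RNA genes (31.6%) and for both snoRNAs. The fold changes and correlations of the 2 snoRNAs, and the main values of the short RNA lists, are also given without that library.

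Levels are given in CPM, which scale the counts of a gene to the total of its library, here with TMM factors. In chow-fed Lama4 fl/fl mice, Snord118 ranged from 2.23 to 33.7 CPM with a median of 9.31. In HFD-fed Lama4 fl/fl mice it ranged from 1.12 to 3.17 CPM with a median of 2.31. Every chow-fed control except replicate 1 was above all HFD-fed controls, so 5 of 6 were, in the contrast that chose the gene, where 1.07% of all genes showed this. Chow-fed Lama4 AKO mice had 2.10 to 7.13 CPM with a median of 3.26. HFD-fed Lama4 AKO mice had 1.09 to 2.87 CPM with a median of 2.03. These 2 groups overlapped, with 3 HFD-fed mice below all chow-fed mice and 4 chow-fed mice above all HFD-fed mice. The shares of all genes for these counts were not computed. At least 5 of 6 HFD-fed mice were below every chow-fed mouse for 12.4% of all genes in this comparison. The counts behind these levels were low, from 13 to 437 reads, and a count of 13 has an exact Poisson 95% interval of 6.92 to 22.2 that covers counting error only.

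Snord13 was counted with 219 to 9231 reads. In chow-fed Lama4 fl/fl mice it ranged from 91.6 to 712 CPM with a median of 191. In HFD-fed Lama4 fl/fl mice it ranged from 30.2 to 95.2 CPM with a median of 61.3. As for Snord118, replicate 1 was the lowest chow-fed control and replicate 2 the highest, and replicate 1 alone lay within the range of the HFD-fed controls. Chow-fed Lama4 AKO mice had 63.0 to 162 CPM with a median of 107. HFD-fed Lama4 AKO mice had 18.3 to 64.5 CPM with a median of 41.2. Only the highest HFD-fed mouse, replicate 1, reached the range of the chow-fed Lama4 AKO mice.

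**Figure D1:**
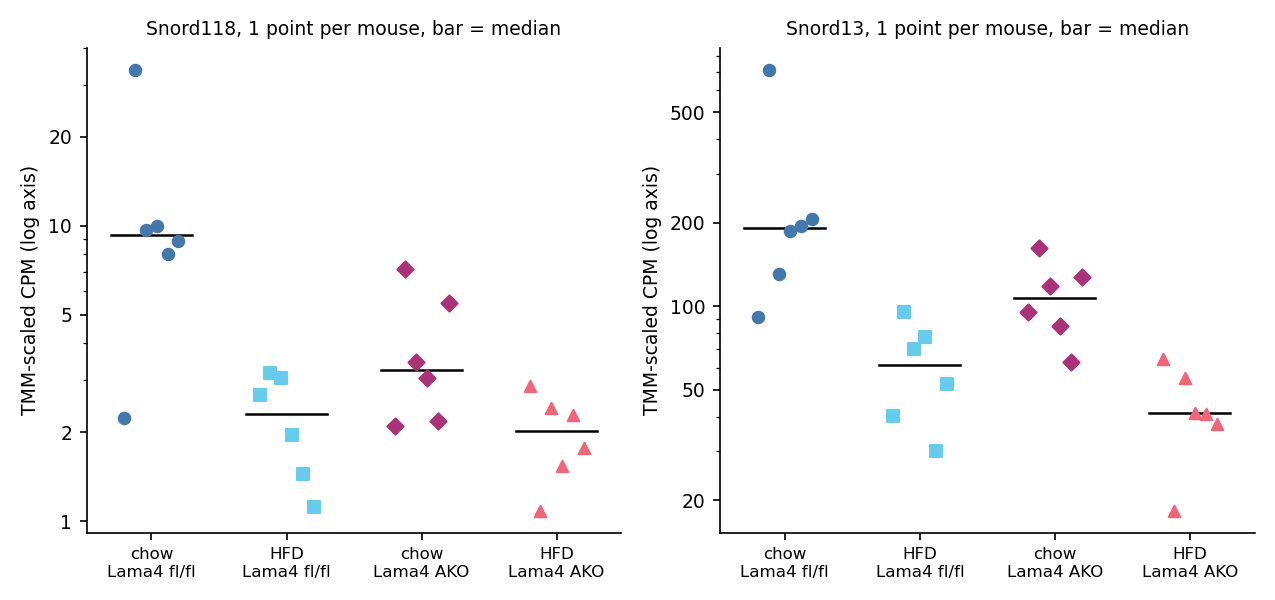
Level of Snord118 (left) and Snord13 (right) in each of the 24 mice, in TMM-scaled CPM on a log axis, by diet and genotype, with a bar at the median of the 6 mice of a group. The medians of Snord118 are 9.31, 2.31, 3.26 and 2.03 CPM from left to right and those of Snord13 are 191, 61.3, 107 and 41.2 CPM, and chow-fed Lama4 fl/fl replicate 2 stands above the other libraries in both panels.

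The groups stood in the same order for both snoRNAs, with chow-fed controls first, chow-fed Lama4 AKO mice second, then HFD-fed controls and last HFD-fed Lama4 AKO mice. The means on the log2 CPM scale were 3.20 ± 1.22, 1.88 ± 0.68, 1.17 ± 0.57 and 1.04 ± 0.47 for Snord118 (SD, n = 6). For Snord13 they were 7.65 ± 1.001, 6.70 ± 0.48, 5.83 ± 0.62 and 5.33 ± 0.62 (SD, n = 6). Without replicate 2, chow-fed controls had 2.82 ± 0.88 for Snord118 and 7.28 ± 0.50 for Snord13 (SD, n = 5) and stayed first. Neighbouring groups in this order overlapped for both genes. The 2 HFD groups differed by less than 1 SD, by −0.13 for Snord118 and −0.50 for Snord13 (Lama4 AKO minus Lama4 fl/fl, log2 CPM).

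Diet in Lama4 AKO mice is the comparison that shares no mouse with the contrast used to choose the genes. Snord13 was lower on HFD in these mice, by a log2 fold change of −1.33 (standard error 0.400), which is a 2.52-fold difference. Its adjusted p was 0.0265 in the quasi-likelihood test of edgeR across 15020 genes. A two-sided exact permutation test of log2 CPM on this gene alone gave an unadjusted p of 0.00433, where the smallest possible p is 0.00216. All 6 HFD-fed mice lay below the chow-fed median and 5 of 6 below every chow-fed mouse, a pattern shown by 12.4% of all genes in that direction. It missed the criteria of the study, which called 643 of 15020 genes here (4.28%), as its nominal p of 0.00276 was above the limit of 0.001. An adjusted p of at most 0.05 was reached by 22.5% of all genes, with 13.5% lower and 9.06% higher, so that Snord13 was 1 of many genes that differed between diets in this genotype. Leaving out 1 mouse at a time gave log2 fold changes from −1.49 to −1.18 with adjusted p from 0.0153 to 0.0611, above 0.05 without chow-fed replicate 1, 2 or 3 or HFD-fed replicate 2, 4 or 5.

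For Snord118, the difference between diets in Lama4 AKO mice was in the same direction but did not pass the test across all genes. The log2 fold change was −0.97 (standard error 0.456), a 1.96-fold difference, with an adjusted p of 0.115 from edgeR. The exact permutation test on this gene alone gave p = 0.0346. All 6 HFD-fed mice lay below the chow-fed median, and the share of all genes that showed this was not computed. Without 1 mouse the log2 fold change ranged from −1.10 to −0.71. Over all alternatives the adjusted p of Snord118 ranged from 0.0391, in a fit of these 2 groups alone, to 0.270, without chow-fed replicate 2.

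**Figure D2:**
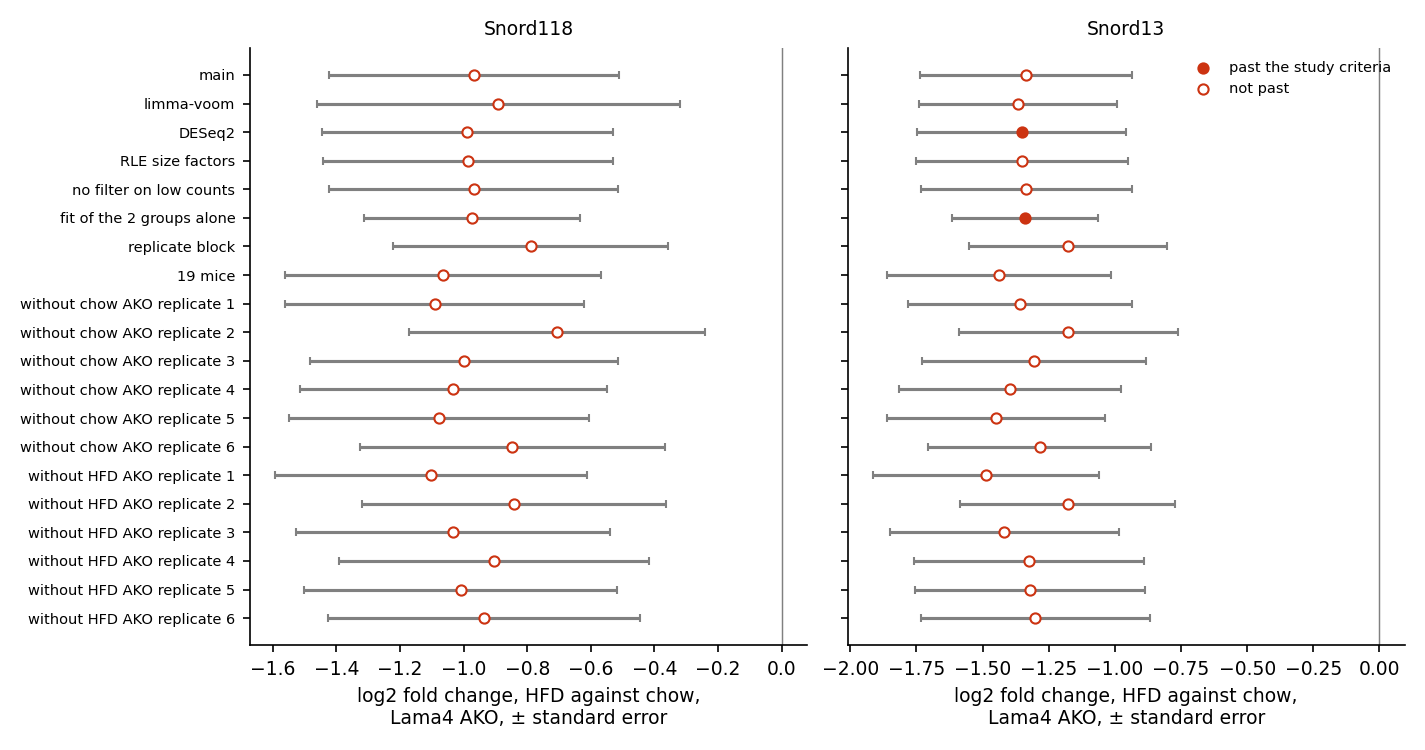
Log2 fold change of HFD against chow in Lama4 AKO mice for Snord118 (left) and Snord13 (right) under each alternative, with bars of 1 standard error and filled points where the criteria of the study were met. Every value is below 0, from −1.10 to −0.71 for Snord118 and from −1.49 to −1.18 for Snord13, and only DESeq2 and the fit of the 2 groups alone met the criteria for Snord13.

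The remaining comparisons hold control mice from the contrast that chose the genes and are described without a test. In the controls, the diets differed by a log2 fold change of −2.43 (standard error 0.454) for Snord118 and −2.06 (0.407) for Snord13. These values chose the genes, in a contrast where 28 of 15020 genes (0.186%) met the criteria of the study. With edgeR 0 genes reached an adjusted p of 0.05, 1390 (9.25%) had a nominal p under 0.05, and DESeq2 placed 27 at an adjusted p of at most 0.05. These counts depended strongly on the mice used. With edgeR and without 5 mice that the study appears to have set aside, 1751 of 14863 genes met the criteria. An adjusted p of at most 0.05 was then reached by 4296 genes. In chow-fed replicate 2, Snord118 was 3.78 times and Snord13 3.80 times the median of the other 5 controls. Without that library the log2 fold changes were −1.82 (0.374) and −1.43 (0.310).

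On chow, Lama4 AKO mice had lower levels than Lama4 fl/fl mice, with log2 fold changes of −1.62 (standard error 0.440) for Snord118 and −1.23 (0.397) for Snord13. For Snord118, 5 of the 6 controls were above every Lama4 AKO mouse, as for 1.32% of all genes, and for Snord13 the ranges overlapped further. The criteria of the study called 19 of 15020 genes here (0.126%), neither snoRNA among them. Without control replicate 2 the values were −0.99 (0.367) and −0.58 (0.308). On HFD the genotypes overlapped, with −0.16 (0.459) and −0.50 (0.395), in a comparison where 24 genes (0.16%) were called. The difference between genotypes in the effect of diet was 1.46 (0.633) for Snord118 and 0.72 (0.556) for Snord13 on the log2 scale, and 0.86 (0.522) and 0.11 (0.428) without control replicate 2.

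The mRNA genes beside the snoRNAs were not lower on HFD in Lama4 AKO mice. Tmem107 was higher, by 0.47 on the log2 scale (standard error 0.144), with an adjusted p of 0.0283 from edgeR. Chow-fed mice had 4.72 to 5.70 CPM with a median of 5.37, and HFD-fed mice 6.24 to 9.26 CPM with a median of 7.18. The groups did not overlap, as for 6.96% of all genes, and the direction was opposite to that of Snord118. For Tti2 the log2 fold change was 0.06 (0.156, adjusted p = 0.798 from edgeR), with medians of 6.99 CPM on chow and 7.18 on HFD. On the other side, the nearest genes in the table were Vamp2, 14928 bases from Snord118, and Rnf122, 18381 bases from Snord13. Vamp2, which encodes a vesicle SNARE protein, had 0.38 (0.202, adjusted p = 0.155 from edgeR). Rnf122, which encodes a RING finger protein, had −0.10 (0.190, adjusted p = 0.726 from edgeR).

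**Figure D3:**
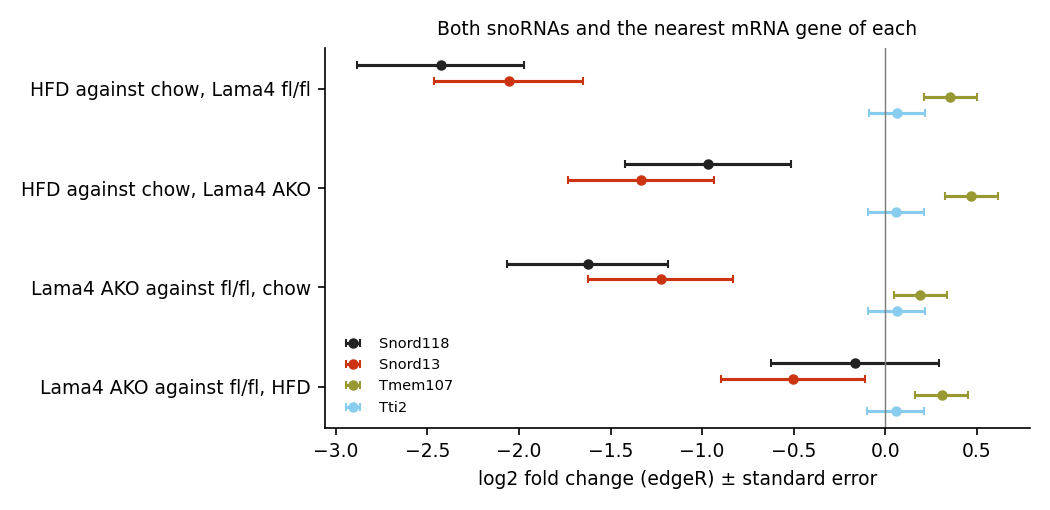
Log2 fold changes from edgeR with bars of 1 standard error for Snord118, Snord13 and the nearest mRNA gene of each in the 4 comparisons of diet or genotype. Both snoRNAs lie below 0 in all 4 comparisons, from −2.43 to −0.97 in the first 3. In the fourth, Snord118 is at −0.16 and Snord13 at −0.50. Tmem107 and Tti2 lie between 0.06 and 0.47 in all 4. The comparisons share mice.

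The levels of the 2 snoRNAs were compared between mice of the same group in Lama4 AKO mice, which took no part in the choice of the genes. After centring on the group means, log2 CPM of Snord118 and Snord13 correlated over these 12 libraries with Pearson r = 0.854 (adjusted permutation p = 0.00154) and Spearman rho = 0.881 (adjusted permutation p = 0.00455), adjusted over 7 relations. Without the 2 libraries farthest from the median of Snord118, r was 0.780 and the adjusted permutation p was 0.118, so the relation no longer passed the test with 10 libraries. Over all 24 libraries, which include the controls that chose the genes, r was 0.829 and rho 0.771, as a description. This r was 0.710 without the 2 farthest libraries and 0.731 without chow-fed control replicate 2. Both values of a point come from 1 library and share its depth and RNA. In Lama4 AKO mice, the relations of either gene with the log2 library total and the mitochondrially encoded share of counts did not pass the test, with r between 0.052 and 0.355 and adjusted permutation p of at least 0.422. Without the 2 farthest libraries each of these changed sign, with r between −0.611 and −0.145 and adjusted permutation p of at least 0.265.

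The relation with the other small RNAs of a library was taken as the correlation with the summed level of 44 other small RNA genes recognised by symbol. In Lama4 AKO mice it did not pass the test for either gene. For Snord13 r was 0.565 and rho 0.601, and for Snord118 r was 0.558 and rho 0.601 (adjusted permutation p = 0.185 for each r and 0.128 for each rho). Over all 24 libraries r was 0.751 for Snord13 and 0.503 for Snord118, as a description, and 0.695 and 0.356 without chow-fed control replicate 2. The part of the levels of other small RNAs in the differences between diets was not tested.

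**Figure D4:**
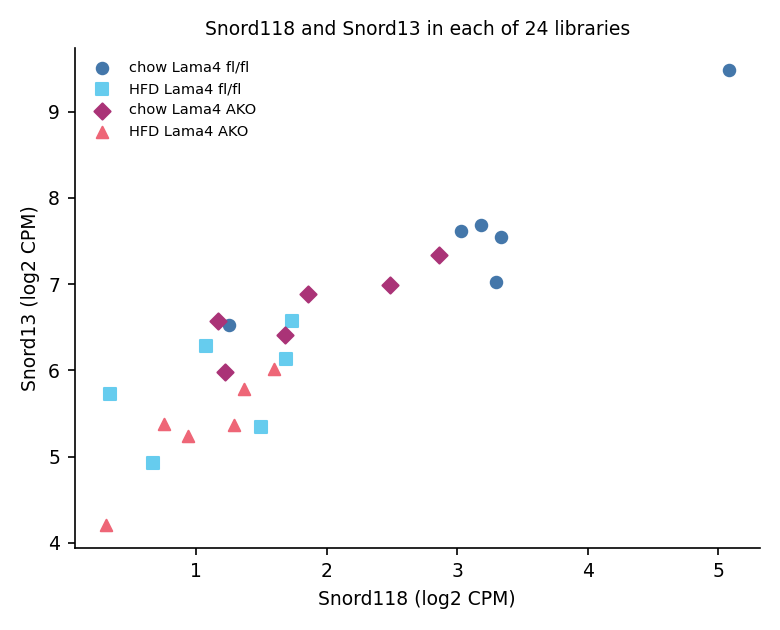
Snord13 against Snord118 in each of the 24 libraries, both in log2 CPM, with 1 symbol per group of diet and genotype. After centring on the group means r is 0.829 over all libraries and 0.854 over the 12 Lama4 AKO libraries. The library of chow-fed control replicate 2 is the point at the upper right.

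The ratio of the 2 raw counts within a library needs no scaling between libraries. It ranged from 13.4 to 47.1 Snord13 reads per Snord118 read over all mice. Lama4 AKO mice on chow had 22.7 to 45.3 reads with a median of 28.3, and those on HFD had 16.8 to 26.9 with a median of 21.9. The mean log2 ratio was 4.88 ± 0.37 on chow and 4.40 ± 0.25 on HFD (SD, n = 6), a difference of −0.48 (exact permutation p = 0.0152, two-sided), so Snord13 was lower relative to Snord118 on HFD in this genotype. In Lama4 fl/fl mice the order was the other way, with means of 4.48 ± 0.53 on chow and 4.77 ± 0.61 on HFD. The difference of these differences was not tested, and the ratio was computed after the data had been seen.

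Of the other short RNA genes in the annotation (snoRNAs, scaRNAs, snRNAs, miRNAs, mitochondrial tRNAs and similar classes), 136 were in the table and 79 passed the filter on low counts. In Lama4 AKO mice, 56 of the 79 were lower on HFD and 23 higher, with a median log2 fold change of −0.69, against −0.00 over all genes tested. By the criteria of the study 3 fell, Snord89, Gm26225 and Gm24074, and 0 rose, against 3.09% and 1.19% of all genes. At an adjusted p of at most 0.05, 17 fell and 1, Gm23346, rose, against 13.5% and 9.06% of all genes. In the controls, 59 were lower and 20 higher, with a median of −0.51. Without chow-fed control replicate 2, of 76 tested 53 were lower and 23 higher, with a median of −0.43. The split by host leaves out the 14 mitochondrial tRNA genes. For the 43 genes inside a host gene on the same strand the medians were −0.68 in Lama4 AKO and −0.41 in Lama4 fl/fl mice. For the 22 without a host, the arrangement of Snord118 and Snord13, they were −0.56 and −0.73. The medians in Lama4 fl/fl mice without replicate 2 were −0.41 for 42 genes with a host and −0.53 for 21 genes without. The values of Snord118 and Snord13 in Lama4 AKO mice, −0.97 and −1.33, lie within the spread of the other short RNAs.

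**Figure D5:**
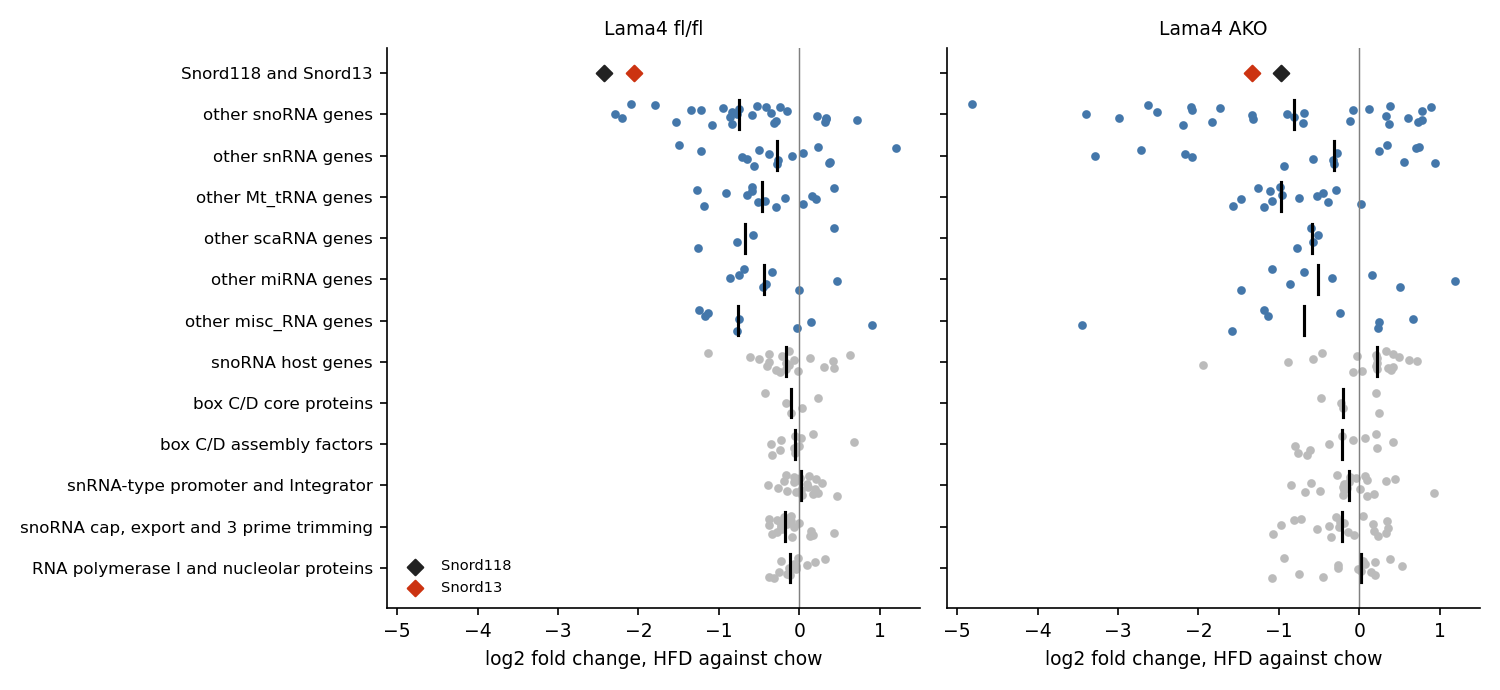
Log2 fold change of HFD against chow in Lama4 fl/fl mice (left) and Lama4 AKO mice (right) for Snord118, Snord13, the other short RNA genes by class (blue) and genes of snoRNA production (grey), with a black bar at the median of each list. The classes of short RNA shown have medians below 0 in both panels, such as −0.75 and −0.81 for 27 other snoRNA genes, while the 20 host genes have medians of −0.17 and 0.22. Not shown are 2 rRNA genes, with medians of 0.52 in Lama4 fl/fl and −0.67 in Lama4 AKO mice, and 1 ribozyme gene, with −1.08 and −1.19. With control replicate 2 on chow left out, the values of the left panel are −0.59 for 25 other snoRNA genes and −0.19 for the host genes.

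Among the 10 small RNAs with the highest mean count, Snord89, a snoRNA that lies within Gm15832, fell most in Lama4 AKO mice. It had 21.8 to 94.9 CPM with a median of 83.6 on chow and 0.313 to 11.4 CPM with a median of 0.745 on HFD, a log2 difference of −4.82 (1.04, adjusted p = 0.0117 from edgeR). The diet groups did not overlap, as for 6.96% of all genes. Vaultrc5, a vault RNA, fell by 1.18 on the log2 scale (0.428, adjusted p = 0.0492 from edgeR), and Snora30, an H/ACA snoRNA within Srcap, fell by 2.52 (0.708, adjusted p = 0.0226). Mir703 had −0.69 (adjusted p = 0.0545), Scarna17 −0.52 (0.275), Mir351 −0.34 (0.537) and Rny3 −0.24 (0.604). Snord104, with 0.12, Mir5136, with 0.15, and Rnu11, with 0.35, had values above 0, with adjusted p of at least 0.621.

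The 5 genes of box C/D particle proteins had no call by the criteria of the study in any comparison, and in Lama4 AKO mice their median log2 fold change was −0.20. Nop58 had −0.23 (adjusted p = 0.164 from edgeR) and Nop56 −0.20 (adjusted p = 0.219). Rrp9, a protein of the U3 particle, was lower at −0.48 (adjusted p = 0.0483). Of 11 assembly factors, Nolc1, a nucleolar and Cajal body phosphoprotein, was called lower in Lama4 AKO mice at −0.76 (standard error 0.185, adjusted p = 0.0157), and Rpap3, Nufip1, Ruvbl1 and Coil were also lower at an adjusted p of at most 0.05, which makes 5 of 11 against 13.5% of all genes. Ruvbl2, an ATPase of the R2TP complex, was called higher on HFD in Lama4 fl/fl mice at 0.68 (0.179), where 0.133% of all genes were called higher and its adjusted p was 0.399.

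Snord118 and Snord13 share their type of promoter with the spliceosomal snRNAs, which is read by the SNAPc complex and whose transcripts are ended by Integrator. None of 21 genes of that machinery was called in any comparison. In Lama4 AKO mice Ints12 and Snapc2 rose and Ints13 and Ints14 fell at an adjusted p of at most 0.05. Each pair is 2 of 21, against 9.06% higher and 13.5% lower over all genes. The 2 most abundant had values of −0.15 (Ints4, adjusted p = 0.501 from edgeR) and 0.07 (Snapc5, adjusted p = 0.781). Of 20 genes of cap formation, export and 3′ trimming, 4 were called lower on HFD in Lama4 AKO mice and none higher, against 3.09% and 1.19% of all genes. Tgs1, which makes the trimethylguanosine cap, fell by 0.72 on the log2 scale (standard error 0.179, adjusted p = 0.0166 from edgeR). Nudt16, a decapping enzyme first described for its binding to U8, fell by 0.98 (0.213, adjusted p = 0.0118). Tent4b, a poly(A) polymerase that adds short tails to nuclear RNAs, fell by 0.81 (0.183, adjusted p = 0.0129), and Lsm3, a subunit of the LSm rings, by 1.07 (0.228, adjusted p = 0.0113). None of these 20 was called in another comparison, and their median in Lama4 AKO mice was −0.22.

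Nat10 and Thumpd1, the acetyltransferase that U13 guides and its tRNA cofactor, had values of 0.07 (standard error 0.148, adjusted p = 0.754 from edgeR) and 0.01 (0.119, adjusted p = 0.941) between diets in Lama4 AKO mice, and neither was called in any comparison. Of 15 genes of RNA polymerase I and the nucleolus, Ddx21, a nucleolar RNA helicase, was called lower in Lama4 AKO mice at −1.08 (0.251, adjusted p = 0.0138). At an adjusted p of at most 0.05, Ncl, Ubtf and Polr1a also fell and Polr1f rose. This makes 4 of 15 lower and 1 higher, against 13.5% and 9.06% of all genes. The median of the 15 was 0.02. Of 22 snoRNA host genes listed, 20 were tested and none was called between diets. At an adjusted p of at most 0.05 Snhg11 fell and Snhg17 rose in Lama4 AKO mice, against the same shares of all genes. The medians of the 20 were 0.22 in Lama4 AKO and −0.17 in Lama4 fl/fl mice. Snhg3 was the host gene called in the interaction, as were 0.366% of all genes, with log2 fold changes of 0.50 (adjusted p = 0.0778) in Lama4 AKO and −0.61 (adjusted p = 0.424) in Lama4 fl/fl mice.

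Markers of cell types were compared between diets as well, and at an adjusted p of at most 0.05 in Lama4 AKO mice 13.5% of all genes were lower and 9.06% higher. Adipocyte markers had a median log2 fold change of −1.12, with Adipoq, Plin1, Lipe and Lep (4 of 6) lower at an adjusted p of at most 0.05 and Lep, which encodes leptin, called at −2.12 (adjusted p = 0.0154 from edgeR). Their summed level was 14216 to 35715 CPM on chow and 8234 to 22909 CPM on HFD. Macrophage markers had a median of 1.07, with Cd68 and Itgax (2 of 6) higher, and their summed level was 1945 to 7155 CPM on chow and 5899 to 11445 CPM on HFD. Of the other lists, the endothelial genes Pecam1 and Cdh5 (2 of 4) and the mesothelial gene Msln (1 of 4) were lower. The stromal gene Pdgfra (1 of 4) was higher, and no lymphocyte or red blood cell gene passed an adjusted p of 0.05. By the criteria of the study Msln was also called lower and Pdgfra higher, where 3.09% and 1.19% of all genes were. In the controls the adipocyte and macrophage lists had medians of −0.08 and 0.09, and −0.23 and 0.12 without chow-fed replicate 2. The lymphocyte list had a median of 0.99 there, with 6 of 6 genes above 0 (0.55 to 1.99), and of 0.96 without that replicate. Its summed level was 9.04 to 68.2 CPM with a median of 27.7 in chow-fed and 6.04 to 150.4 CPM with a median of 53.5 in HFD-fed controls. No marker was called in the controls. In bulk tissue, fewer cells of a type and less RNA per cell cannot be told apart, and the part of tissue makeup in the levels of Snord118 and Snord13 was not tested.

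Over all 24 libraries and 15018 genes compared, the genes whose log2 CPM correlated best with the mean of both snoRNAs were Vaultrc5 (r = 0.878), Spink10 (0.852), Tbca (0.832), Gm22009 (0.812), Snrpb2 (0.807) and mt-Tt (0.803). The median r over all genes was −0.00, and the highest was that of Vaultrc5. These values include the differences between groups and are a description. Gm22009 is annotated as a small Cajal body RNA and mt-Tt as the mitochondrial threonine tRNA, so 3 of the 6 are short RNAs. Other short RNAs made up 79 of the 15020 genes tested. Spink10 belongs to the Kazal-type inhibitor family, Tbca encodes a tubulin cofactor, and Snrpb2 encodes a U2 snRNP protein. Without chow-fed Lama4 fl/fl replicate 2, Spink10 (0.818) and Vaultrc5 (0.815) led, followed by Mak16 (0.792), mt-Co1 (0.789), Dcp2 (0.789) and Ncl (0.787). Of these 6 only Vaultrc5 is a short RNA, as Gm22009 fell to rank 28 and mt-Tt to rank 53.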

How the data were processed

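Single-ended 50-base QuantSeq reads of eWAT RNA were mapped and counted by the authors with the Lexogen QuantSeq pipeline on the Bluebee platform, on GRCm38. The submitters' processing notes also name R 4.0.3 and DESeq2 1.30. The authors deposited raw counts per gene, which were used for all values, and a normalized signal, in which each library's deposited counts are divided by 1 size factor. That table served as a check, and its symbol column lacks both snoRNAs, which were found by gene ID in GENCODE release 21. The sequence of Snord13 is not reported here.

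Tests were run on the counts with edgeR 4.0.16 (R 4.3.3). The filter asked for 1 CPM or more in 3 or more mice and left 15020 genes, library sizes were TMM-scaled, and all 24 mice entered a single quasi-likelihood fit with a term for each of the 4 groups. P-values were adjusted after Benjamini and Hochberg. The criteria of the study ask for a 1.5-fold change, an unadjusted p of at most 0.001 and a mean of 2 CPM or more in whichever group is higher. They were applied here to edgeR unless another tool is named, whereas the study used limma. Single values were tested with exact permutations (924), and correlations with 100000 permutations within groups. Log2 CPM used a prior count of 2. Similar sequences were sought with blastn 2.17.0 in the GENCODE transcripts.

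Both genes and all gene lists were chosen with earlier results of these data known. Named genes were both snoRNAs, Lama4, their nearest genes in the table, the 10 small RNAs with the highest mean count, the 6 genes most correlated with both, and from each pathway list the genes called or otherwise the 2 most abundant. Other list members are named after their values were seen. Alternatives were limma-voom 3.58.1, DESeq2 1.42.0, RLE size factors, no filter, a fit of 2 groups, a replicate block, 19 mice and each mouse left out. The 19 mice leave out those that the study appears to have set aside, as inferred from its own filter. In simulated counts for diet in Lama4 AKO mice (14824 genes), edgeR called 60 of 100 genes changed 2-fold, 94 of 100 changed 4-fold and 6 of 14624 unchanged genes. All 60 pairs of libraries within groups differed beyond sampling noise, with a chi-square per degree of freedom of at least 6.07. The labels give 1 library per mouse. No comparison had a correlation above 0.1 in every pair of mice with the same replicate number, so the numbers were not taken as pairs. Gene lists and relations without single libraries were added after the data had been seen.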

Additional observations from a re-analysis of the deposited data

How the results depend on the processing

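For Snord118 and Snord13, every alternative kept the direction of every comparison of diet or genotype. In Lama4 AKO mice Snord13 met the criteria of the study between diets with DESeq2 (−1.35, adjusted p = 0.00722) and with a fit of the 2 groups alone (−1.34, adjusted p = 0.0049). The adjusted p of Snord13 was above 0.05 in 6 of the 12 fits without 1 mouse, and at most 0.0611. Snord118 between diets in Lama4 fl/fl mice met the criteria in the reported fit but not with the 19 mice (−2.42). Snord118 between genotypes on chow did not meet them in the reported fit but did with DESeq2 (−1.62), with control replicate 1 left out (−1.85) and with Lama4 AKO replicate 2 left out (−1.89). Limma-voom gave −0.89 (adjusted p = 0.240) for Snord118 and −1.37 (adjusted p = 0.0229) for Snord13, and the 19 mice gave −1.07 (adjusted p = 0.0942) and −1.44 (adjusted p = 0.012). The number of genes called between diets in Lama4 AKO mice, 643 as reported, was 1314 with DESeq2, 1391 with the fit of the 2 groups alone and 2344 with the 19 mice. It ranged from 297 without chow-fed Lama4 AKO replicate 3 to 1160 without chow-fed Lama4 AKO replicate 5. Limma-voom called 280 higher and 330 lower, against 179 and 464 with edgeR. Over all 24 libraries, the correlation of Snord13 with the log2 library total changed sign, from 0.176 to −0.0371, without the 2 farthest libraries. The cause was not tested in any of these cases.

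With the replicate number as a block, the log2 fold changes in Lama4 AKO mice were −0.79 (adjusted p = 0.186) for Snord118 and −1.18 (adjusted p = 0.0426) for Snord13, and 478 genes were called. In that comparison, deviations of mice with the same number correlated with −0.308 to 0.184, above 0.1 in 2 of 6 pairs, and 1 of 6 mice correlated best with its own number, so the mice share only a number. Between diets in the controls such correlations were −0.483 to 0.308 (2 of 6 pairs above 0.1, 1 best with its own number). Between genotypes they were −0.346 to 0.714 on chow (3 of 6 above 0.1, 3 best) and −0.195 to 0.564 on HFD (3 of 6 above 0.1, 1 best). For Snord118 and Snord13 no comparison changed its side of the criteria under the block, which is a description where control mice take part. The genes called went from 28 to 19 between diets in Lama4 fl/fl mice, from 19 to 11 and from 24 to 22 between genotypes on chow and HFD, and from 55 to 33 in the interaction.

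Snord118 had 13 to 82 reads per library in Lama4 AKO mice, which limits its precision. The efficiency with which either RNA is primed and recovered limits both genes and is unknown.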
